A study of Mus musculus with 2 samples.

Results

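The ETS and Krüppel-like factors are 2 families of DNA-binding proteins, and their 43 genes among the 22558 genes of the deposited tables were selected by gene symbol. The 43 comprise 26 ETS genes and 17 Krüppel-like (Klf) genes. The rule uses symbols alone, but the families were picked with earlier results of these data known. Their levels were compared between 2 cell fractions of mouse breast tumours, grown in the inbred strain FVB, with 1 library of tumour initiating cells (TIC) and 1 library of non-tumorigenic cells (NTC). Both fractions came from dissociated tumours, were sorted by flow cytometry at once and received no treatment. The sort gate, the tumour model, the animals' age and the number of animals behind each library were not stated in the sources at hand. Levels are in FPKM, which divides the fragments of a gene by its transcript length and by the library size. Levels of different genes are therefore on 1 scale, although amplification of the cDNA can shift a gene's level with its length and base composition. With 1 library per group there is no replicate error, so no test, SD or p-value can be given. Every difference is one between these 2 libraries.

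ETS proteins share a winged-helix domain that binds DNA around the core letters GGAA. Many of them are switched by ERK kinase signals, and the mammary gland uses several as lineage regulators, among them Elf5 in the milk-secreting lineage. Krüppel-like factors bind CACCC boxes and GC-rich elements through zinc fingers at the end of the protein. They act as activators or, through CtBP and Sin3 corepressors, as repressors, and several control growth and differentiation of epithelia.

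Depth was estimated from the smallest values of short receptor genes. This gave roughly 20.99 M fragments for the TIC library and 21.61 M for the NTC library. Both estimates used the same fixed window of small values, which confines them to a limited range. They therefore cannot show whether the libraries were sequenced to a similar depth. These estimates cover counting only. The labels were set against marker genes. All 10 basal markers were at least 2-fold higher in TIC (summed level 4232.6 FPKM in TIC and 41.2 FPKM in NTC), led by Acta2, Col17a1 and Krt5, and 4 of them were below 1 FPKM in NTC. Of 12 luminal markers, 11 were at least 2-fold lower in TIC (207.2 FPKM in TIC and 3404.5 FPKM in NTC), led by Krt19, Cldn3 and Krt18, while Pgr had 4.68 FPKM in TIC and 2.95 FPKM in NTC, and 6 of the 12 were below 1 FPKM in TIC. In sorted bulk samples, fewer cells of a type and less RNA per cell cannot be told apart, and this holds for every difference below.

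Most of the abundant members differed between the fractions, in both directions. A gene is called measured when its mean over both libraries was at least 1 FPKM, and its ratio is log2((TIC + 1)/(NTC + 1)), which understates the difference of low genes. Of the 43 members 31 were measured, 18 ETS and 13 Klf genes. At least 2-fold higher in TIC were 8 measured members, against 14.6% of 12004 measured genes, and at least 2-fold lower were 11, against 13.8%. In either direction this made 19 of 31 members, or 61.3%, against 28.4% of all measured genes. The median of the absolute log2 ratio was 1.24 over the measured members and 0.54 over all measured genes. The signed medians were close to each other, -0.14 for the members and -0.16 for all measured genes. Elf5, Ehf, Elf4, Etv4 and Klf15 were below 1 FPKM in one library and so were measured through the other, which makes a difference between the libraries part of their selection as measured.

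**Figure D1:**
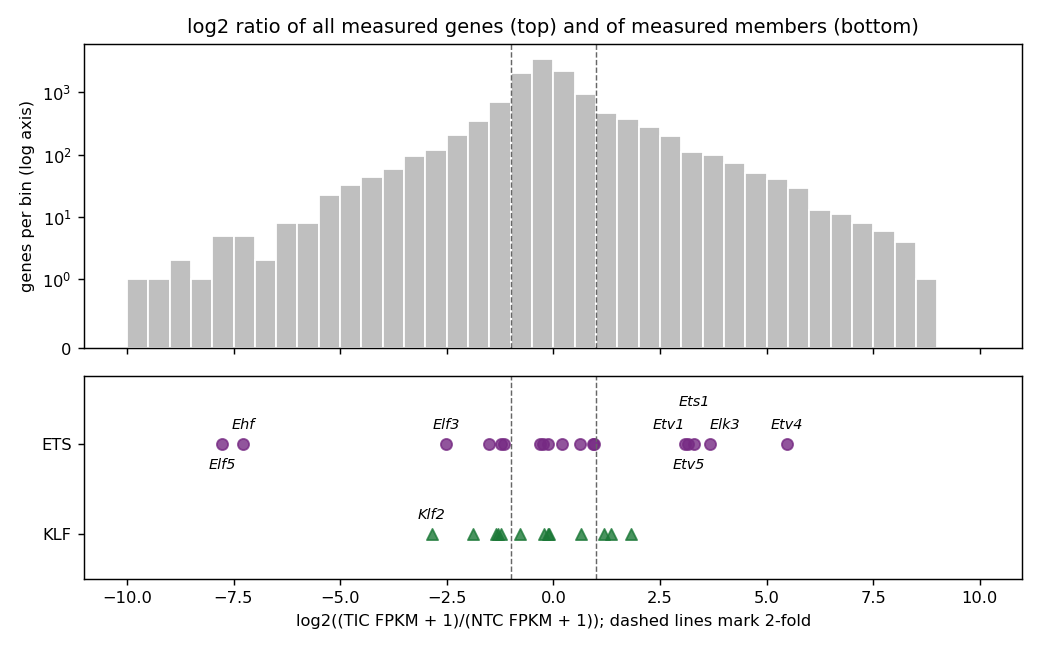
Number of genes per 0.5-wide bin of the log2 ratio of TIC over NTC for all 12004 measured genes (top, log axis), and the log2 ratios of the 18 measured ETS genes (circles) and 13 measured Klf genes (triangles, bottom). Dashed lines mark 2-fold; Elf5 and Ehf lie at the far left, Etv4 at the far right among the members, and 12 members lie between the lines.

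The epithelial ETS factors Elf5, Ehf and Elf3 were lower in TIC, Elf5 and Ehf by the largest ratios of any member. Elf5, which drives alveolar differentiation of luminal progenitors, had 0.363 FPKM in TIC and 295.4 FPKM in NTC, a log2 ratio of -7.76. In NTC it was the 144th most abundant of all genes, while about 19 reads would account for its level in TIC. Ehf, a factor of differentiated epithelia, had 0.683 FPKM in TIC and 261 FPKM in NTC, a log2 ratio of -7.28, and about 64 reads would account for its TIC level. Elf3, a further factor of epithelial differentiation, had 1.61 FPKM in TIC and 13.8 FPKM in NTC, a log2 ratio of -2.51. The group went together, with TIC low for each of the 3 genes, but Elf3 was far below the other two in NTC. Spdef, an ETS factor of secretory epithelia, had 0.108 FPKM in TIC and 1.06 FPKM in NTC, with a mean too low to count as measured.

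Elf5 has 2 start sites in the RefSeq promoter table (build GRCm38.p6). They are shown because Elf5 differed more than any other member, and each sequence below gives the 250 bases before a start, 5′ to 3′. Capitals mark the ETS core GGAA or its reverse complement TTCC and the CACCC box or its reverse complement GGGTG.
Elf5, chr2:103411848-103412097 (+ strand): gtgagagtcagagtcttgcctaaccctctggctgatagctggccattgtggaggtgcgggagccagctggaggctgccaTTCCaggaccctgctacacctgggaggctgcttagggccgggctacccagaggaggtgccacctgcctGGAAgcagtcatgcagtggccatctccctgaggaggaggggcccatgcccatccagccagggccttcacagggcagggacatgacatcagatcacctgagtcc
Elf5, chr2:103423818-103424067 (+ strand): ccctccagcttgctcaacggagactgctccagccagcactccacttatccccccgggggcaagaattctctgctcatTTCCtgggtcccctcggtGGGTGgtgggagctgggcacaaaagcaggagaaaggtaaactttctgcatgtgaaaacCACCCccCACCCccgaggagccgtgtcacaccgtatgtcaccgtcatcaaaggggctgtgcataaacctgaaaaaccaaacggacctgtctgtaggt
The first window holds 2 ETS cores and no CACCC box, and the second holds 1 ETS core and 3 CACCC boxes. The bases just after the first start were not found in a GENCODE transcript of Elf5, while those after the second were. Such short motifs are common. Over 32851 promoter windows of the same length, 93.5% hold GGAA on either strand and 52.0% hold CACCC. A match is a description of the letters and not a binding site.

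Elf5 and Ehf are also neighbours in the genome. In the files' loci (mouse build mm9) Ehf lies at chromosome 2, 103103590 to 103143353, and Elf5 at 103252255 to 103291145, with 108.9 kb and 1 other listed gene between them. That gene, A930006I01Rik, was listed at 0 in both libraries. Within 500 kb of the pair, 7 other genes were measured, 2 of them higher in TIC by 2-fold or more and 1 lower, and their median log2 ratio was -0.29. Apip, Caprin1, Cat, Nat10 and Pdhx had lower values in TIC, Cat alone by 2-fold or more, and Abtb2 and Cd44 had higher values. Most of the measured genes around the pair thus shared its direction but not the size of its ratios. 3 further pairs of members lie within 1 Mb of each other. Ets1 and Fli1 (chromosome 9) are 154.7 kb apart, Ets2 and Erg (chromosome 16) 172 kb, and Klf5 and Klf12 (chromosome 14) 557.2 kb, with no listed gene between the members of any of these pairs. Ets1 was abundant in TIC while Fli1 was listed at 0 in both libraries, and Ets2 was abundant in both while Erg stayed at 0.279 FPKM in TIC and 0 in NTC, so the genes of these pairs did not share their levels. Klf5 and Klf12 both had lower values in TIC, with log2 ratios of -0.79 and -1.34.

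The ELF factors of broad expression were lower in TIC by smaller ratios. Elf1 had 14.2 FPKM in TIC and 33.1 FPKM in NTC (log2 ratio -1.17). Elf4 had 0.894 FPKM in TIC and 4.40 FPKM in NTC (log2 ratio -1.51). Elf2 was within 2-fold, at 29.6 FPKM in TIC and 34.9 FPKM in NTC. Elf1 and Elf4 fall within 2-fold when the pseudocount is 5 FPKM.

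The PEA3 factors Etv1, Etv4 and Etv5, transcriptional activators induced by FGF and ERK signals, went the opposite way from the epithelial ETS factors. Etv5 had 308 FPKM in TIC and 33.4 FPKM in NTC, a log2 ratio of 3.17, and was the most abundant member of either family in TIC, 119th among all genes there. Etv4 had 80.8 FPKM in TIC and 0.832 FPKM in NTC, the largest ratio toward TIC among the members at 5.48, with about 43 reads behind the NTC value. Etv1 had 33.8 FPKM in TIC and 3.09 FPKM in NTC, a log2 ratio of 3.09. All 3 genes were thus high in TIC, and Etv5 had the highest NTC level of the group. For Etv5 the files give several gene identifiers in place of a description, so its value may combine transcripts of more than 1 gene record.

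The same 250-base windows of Etv5, shown because it was the leading member in TIC, came from 2 RefSeq starts of build GRCm38.p6 with the same capitals.
Etv5, chr16:22439571-22439820 (- strand): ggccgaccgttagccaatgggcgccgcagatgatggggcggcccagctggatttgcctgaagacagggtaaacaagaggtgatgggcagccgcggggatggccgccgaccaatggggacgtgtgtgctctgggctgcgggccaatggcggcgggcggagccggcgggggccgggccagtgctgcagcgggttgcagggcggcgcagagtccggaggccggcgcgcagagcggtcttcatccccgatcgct
Etv5, chr16:22438369-22438618 (- strand): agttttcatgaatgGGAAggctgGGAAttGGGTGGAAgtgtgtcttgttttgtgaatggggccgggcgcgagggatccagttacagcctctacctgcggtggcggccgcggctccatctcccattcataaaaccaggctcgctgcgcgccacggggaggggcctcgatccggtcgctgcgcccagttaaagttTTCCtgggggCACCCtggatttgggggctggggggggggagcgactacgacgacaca
The first window holds neither motif. The second holds 4 ETS cores and 2 CACCC boxes, and near its left end the reverse complement GGGTG and a GGAA overlap in the letters GGGTGGAA. The bases just after the RefSeq start that follows this second window were not found in a GENCODE transcript of Etv5. Those just after the start that follows the first window were found. Windows were counted below whether or not such a match was found. Promoter windows were found for 25 of the 31 measured members. The longer ETS motif CCGGAA, held by 12.0% of all windows, was in none of the 8 windows of members higher in TIC, none of the 13 of members lower in TIC and 2 of the 12 of members within 2-fold. CACCC, held by 52.0% of all windows, was in 5 of the 8, 10 of the 13 and 8 of the 12. These windows came from 6, 10 and 9 genes, so some genes gave several windows.

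Of the ternary complex factors, which bind DNA together with the serum response factor SRF and are phosphorylated by ERK, Elk3 differed most. Elk3, which represses transcription until it is phosphorylated, had 59.6 FPKM in TIC and 3.75 FPKM in NTC, a log2 ratio of 3.67. Elk4 had 50.2 FPKM in TIC and 32.3 FPKM in NTC, and Elk1 had 11.5 FPKM in TIC and 5.49 FPKM in NTC. All 3 values were higher in TIC, with Elk1 (log2 ratio 0.95) and Elk4 (0.62) short of the 2-fold line. The order of the genes differed between libraries, since Elk3 was 1.19 times Elk4 in TIC and 0.116 times Elk4 in NTC.

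The founding members Ets1 and Ets2 differed in opposite directions. Ets1, known from lymphocytes, endothelium and invasive tumours, had 68.1 FPKM in TIC and 6.01 FPKM in NTC, a log2 ratio of 3.30. Ets2, its closest relative and likewise activated by ERK, had 33.2 FPKM in TIC and 79.7 FPKM in NTC, a log2 ratio of -1.24. Ets1 was therefore 2.05 times as abundant as Ets2 in TIC and 0.0755 times as abundant in NTC. These within-library ratios do not depend on how the libraries were scaled to each other.

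The remaining measured ETS genes, repressors and a general factor, were within 2-fold. Etv6, a repressor known as TEL, had 67.0 FPKM in TIC and 83.8 FPKM in NTC. Erf, a repressor that ERK moves out of the nucleus, had 30.3 FPKM in TIC and 26.1 FPKM in NTC, and Etv3, a related repressor, had 14.1 FPKM in TIC and 6.91 FPKM in NTC (log2 ratio 0.93). Gabpa, the DNA-binding subunit of a factor that drives many nuclear genes of mitochondrial proteins, had 22.4 FPKM in TIC and 24.6 FPKM in NTC. Elk1 and Etv3 pass 2-fold when the pseudocount is 0.1 FPKM and under each rescaling tried. Their deposited levels differed 2.10-fold and 2.04-fold.

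**Figure D2:**
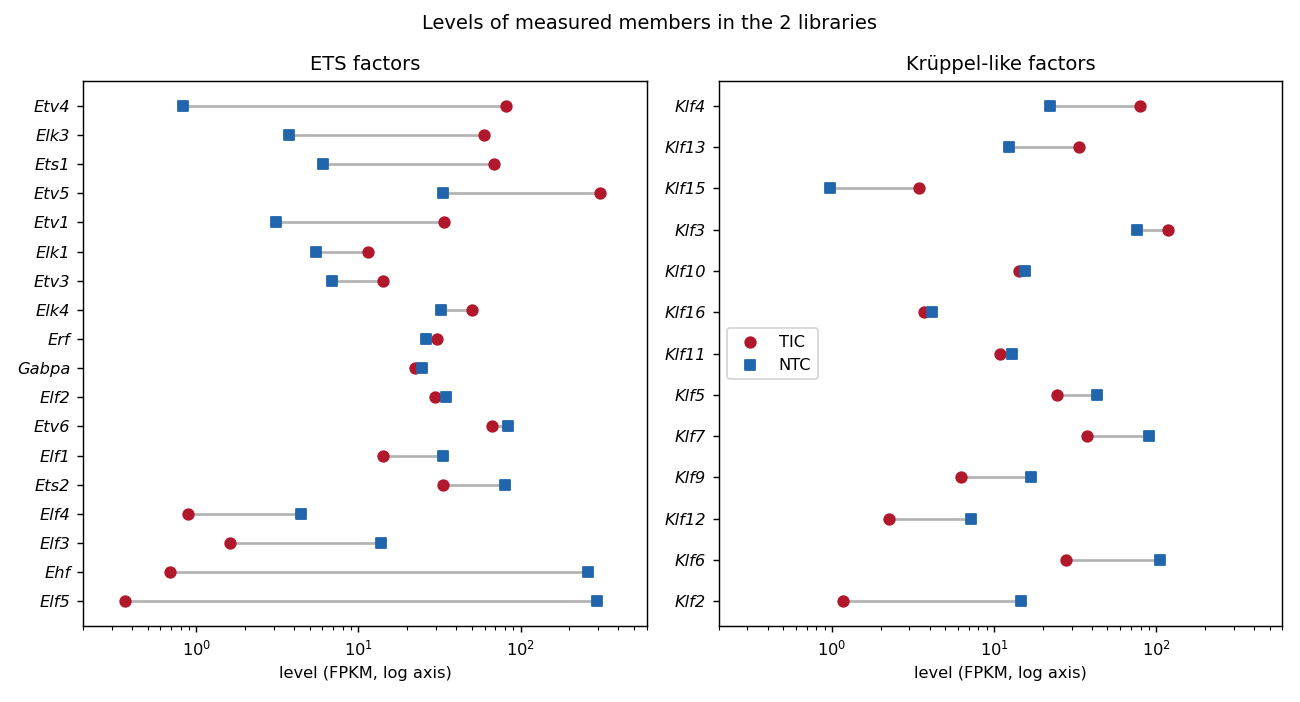
Level in FPKM (log axis) of each of the 31 measured members in TIC (red circles) and NTC (blue squares), 1 library each, ordered by log2 ratio. Elf5 and Ehf sit below 1 FPKM in TIC and at 295.4 and 261 FPKM in NTC, and Etv4 and Klf15 are the members below 1 FPKM in NTC.

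Summed over the 26 genes, the ETS family had similar totals, 826.7 FPKM in TIC and 949.7 FPKM in NTC, made up of different members. Etv1, Etv4 and Etv5 gave 51.1% of the sum in TIC and 3.93% in NTC. Elf3, Elf5 and Ehf gave 0.321% in TIC and 60.05% in NTC. Elk1, Elk3 and Elk4 gave 14.7% in TIC and 4.38% in NTC. Etv5, Etv4 and Ets1 led the order in TIC, and Elf5, Ehf and Etv6 led it in NTC.

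**Figure D3:**
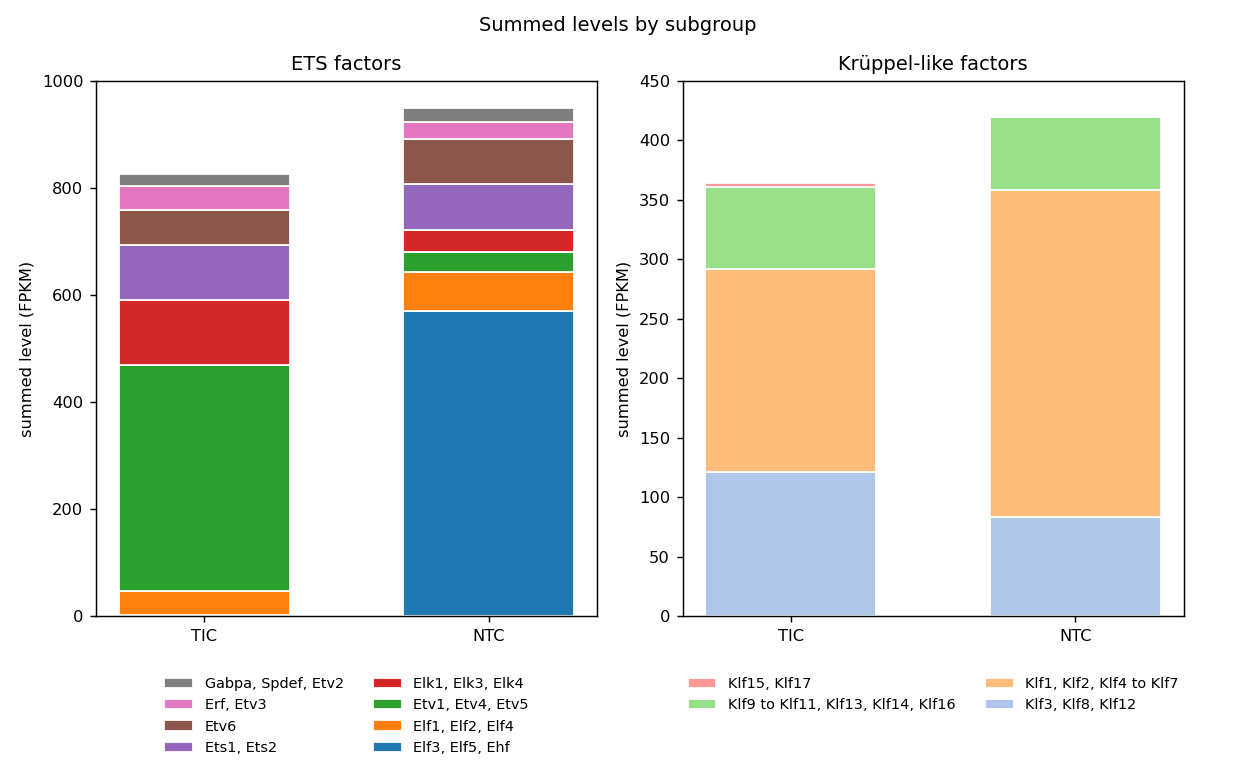
Summed FPKM of the ETS genes (left) and Klf genes (right) in TIC and NTC, 1 library each, with the subgroups stacked. Green in the left panel (Etv1, Etv4, Etv5) makes up 51.1% of the TIC bar and blue (Elf3, Elf5, Ehf) 60.05% of the NTC bar; the Erg, Fli1, Fev and Sfpi1, Spib, Spic subgroups, which sum to 0.279 FPKM in TIC and 0 in NTC, are left out.

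The largest ratios among Krüppel-like factors were smaller than those of the leading ETS genes, but the families' typical ratios were close. The median absolute log2 ratio was 1.23 over the measured Klf genes and 1.37 over the measured ETS genes. Of 13 measured Klf genes, TIC was higher by 2-fold or more for 3 (23.1%) and lower for 5 (38.5%), with log2 ratios from -2.85 to 1.81. Of all measured genes 14.6% were higher and 13.8% lower. The summed level of the Klf genes was 364 FPKM in TIC and 420.9 FPKM in NTC. The most abundant in TIC were Klf3, Klf4 and Klf7, and in NTC Klf6, Klf7 and Klf3.

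Among the mostly activating Klf genes, Klf4 was the member higher in TIC. Klf4, a factor of epithelial barriers that is also used to reprogram cells to pluripotency, had 79.7 FPKM in TIC and 22.0 FPKM in NTC, a log2 ratio of 1.81. Klf5, which is linked to proliferation of epithelia, had 24.5 FPKM in TIC and 43.1 FPKM in NTC, a log2 ratio of -0.79. Klf4 was thus 3.26 times as abundant as Klf5 in TIC and 0.511 times as abundant in NTC. Klf6, a tumour suppressor candidate induced by injury, had 27.6 FPKM in TIC and 105.2 FPKM in NTC, a log2 ratio of -1.89. Klf7, first described as a ubiquitous factor, had 37.6 FPKM in TIC and 89.7 FPKM in NTC, a log2 ratio of -1.23. Klf2, known from endothelium and resting T cells, had 1.17 FPKM in TIC and 14.6 FPKM in NTC, the largest ratio of the family at -2.85.

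Of the Klf repressors that recruit CtBP, Klf3 was the most abundant Klf gene in TIC at 118.8 FPKM, against 75.8 FPKM in NTC, and was within 2-fold. Klf12, a repressor of an AP-2 gene, had 2.24 FPKM in TIC and 7.20 FPKM in NTC, a log2 ratio of -1.34. Klf8 had 0.427 FPKM in TIC and 0.178 FPKM in NTC. The Sin3-binding group held 1 gene higher in TIC and 1 lower by 2-fold or more. Klf13 had 33.4 FPKM in TIC and 12.4 FPKM in NTC (log2 ratio 1.36), and Klf9, which responds to steroid and thyroid hormones, had 6.25 FPKM in TIC and 16.9 FPKM in NTC (log2 ratio -1.31). Klf10, induced by TGF-beta, had 14.3 FPKM in TIC and 15.4 FPKM in NTC. Klf11 had 10.9 FPKM in TIC and 12.9 FPKM in NTC, and Klf16 had 3.70 FPKM in TIC and 4.16 FPKM in NTC, so these 3 were within 2-fold. Klf15, a regulator of glucose and amino acid metabolism in liver and muscle, had 3.45 FPKM in TIC and 0.970 FPKM in NTC (log2 ratio 1.18). Klf12, Klf9 and Klf15 fall within 2-fold when the pseudocount is 5 FPKM.

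The 12 members below the mean of 1 FPKM included several known from blood and vessels. Sfpi1 (PU.1), Spib and Spic of myeloid and B cells, Fli1 of endothelium and platelets, Etv2 of early vessels, Fev of serotonin neurons and Klf14 were listed at 0 in both libraries, which is not read as absence. Erg, an endothelial factor, was found in TIC at 0.279 FPKM and listed at 0 in NTC. Klf1 of red cells and Klf17 were listed at 0 in TIC, with 0.175 and 0.0742 FPKM in NTC. With Spdef and Klf8 this accounts for all members.

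Marker lists of other cells were set beside these values. Of 13 blood cell markers 3 were measured (summed level 6.17 FPKM in TIC and 2.34 FPKM in NTC), and Ptprc, Cd3e and Emr1 were listed at 0 in both libraries. Coro1a and Lyz2 had 3.65 and 1.56 FPKM in TIC and 0.0771 and 0.727 FPKM in NTC, and Cd68 had 0.828 FPKM in TIC and 1.38 FPKM in NTC. Of 10 endothelial markers Eng alone was measured, at 70.7 FPKM in TIC and 13.3 FPKM in NTC, while Pecam1 had 0.584 FPKM in TIC and 0.223 FPKM in NTC and Cldn5 was listed at 0 in both. Kdr had 1.61 FPKM in TIC and 0 in NTC, and Cdh5 had 0.489 FPKM in TIC and 0.0146 FPKM in NTC. None of the 10 had a lower value in TIC. The endothelial list summed to 73.95 FPKM in TIC and 13.7 FPKM in NTC. Of 8 fibroblast markers 4 were measured and all 4 were at least 2-fold higher in TIC (summed level 173.8 FPKM in TIC and 2.44 FPKM in NTC), of which 3 were below 1 FPKM in NTC and so were measured through TIC, with Dcn at 152 FPKM in TIC and 1.51 FPKM in NTC, Col1a2 at 9.56 FPKM in TIC and 0.0119 FPKM in NTC and Pdgfra at 8.83 FPKM in TIC and 0.513 FPKM in NTC. Col1a1 had 0.459 FPKM in TIC and 0.339 FPKM in NTC, and Dpt was listed at 0 in both. Of 8 red cell markers 1 was measured, Hba-a1, at 0.106 FPKM in TIC and 5.55 FPKM in NTC (list sum 0.524 FPKM in TIC and 6.20 FPKM in NTC). The fibroblast list and Eng were higher in the same library as Ets1, Elk3 and the PEA3 genes, the red cell list was higher in the same library as Klf2 and Elf5, and the part of these cells in the members' differences was not tested.

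Genes of the pathways around the members were then compared. FGF receptors and ERK feedback genes, several of which are read as outputs of the signal that induces the PEA3 factors, were mostly higher in TIC. Of 14 measured, TIC was higher by 2-fold or more for 8 and lower for 2, where 14.6% and 13.8% of all measured genes were. The median log2 ratio of the list was 1.18 against -0.16 over all measured genes. The inhibitor Spry1 had 76.9 FPKM in TIC and 5.87 FPKM in NTC, the FGF antagonist Il17rd had 13.7 FPKM in TIC and 0.863 FPKM in NTC, and Spry4 had 26.1 FPKM in TIC and 3.03 FPKM in NTC. Chosen after their values were seen, the receptors Fgfr1 and Fgfr2 had 105 and 58.3 FPKM in TIC and 17.4 and 9.29 FPKM in NTC, and the ERK phosphatase Dusp6 had 198 FPKM in TIC and 30.8 FPKM in NTC. The list was not uniform. Phlda1 had 226 FPKM in TIC and 671.6 FPKM in NTC, the phosphatase Dusp5 had 0.886 FPKM in TIC and 4.02 FPKM in NTC, and the receptor Fgfr3 had 0.862 FPKM in TIC and 2.52 FPKM in NTC.

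Milk genes, the secretory output of the lineage in which Elf5 acts, were at least 2-fold lower in TIC for all 9 measured of 10, with a median log2 ratio of -5.51. The caseins Csn1s1 and Csn2 had log2 ratios of -8.80 and -6.37, and Btn1a1 of the milk fat globule had -7.40. Of these 9, 5 were below 1 FPKM in TIC and so were measured through NTC, and Lalba was listed at 0 in TIC.

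**Figure D4:**
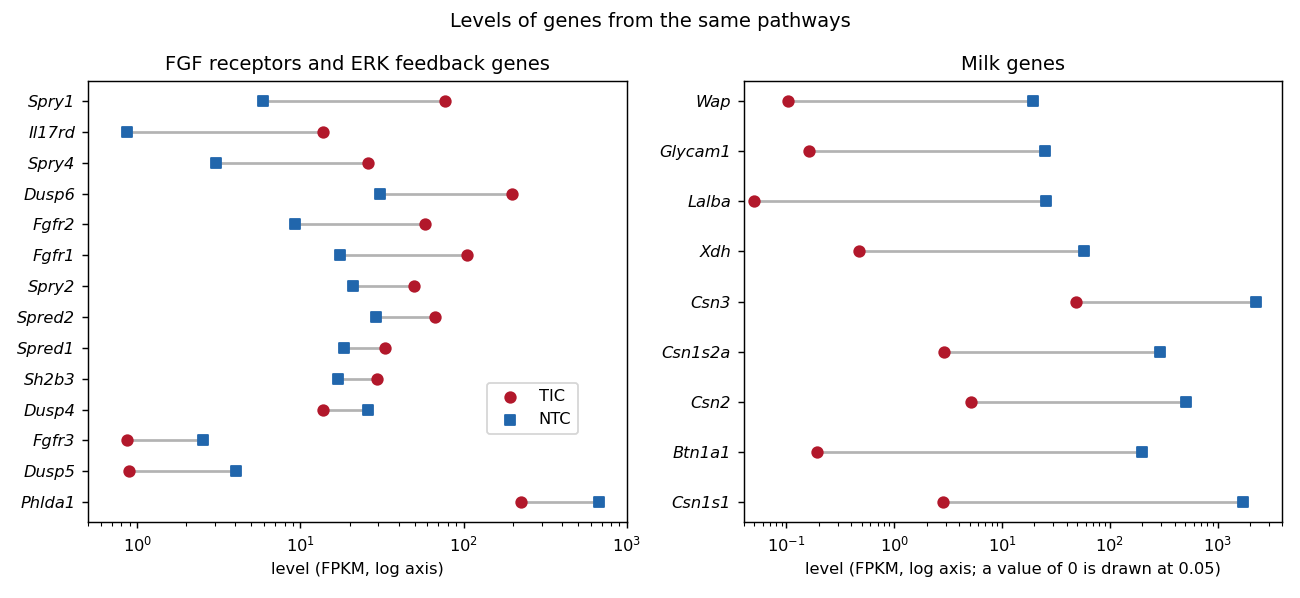
Level in FPKM (log axis) in TIC (red circles) and NTC (blue squares), 1 library each, of the 14 FGF receptor and ERK feedback genes (left) and the 9 measured milk genes (right), ordered by log2 ratio. In the left panel 10 genes are higher in TIC, 8 of them at least 2-fold, and all milk genes lie lower in TIC.

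RNA levels of proteins that work with ETS and Krüppel-like factors were mostly within 2-fold. Of 15 partners and regulators, all measured, 1 was higher in TIC by 2-fold or more and none lower, with a median log2 ratio of -0.05. Of all measured genes 14.6% were higher and 13.8% lower. The gene beyond 2-fold was Srf, the partner of the Elk proteins, at 50.1 FPKM in TIC and 17.5 FPKM in NTC (log2 ratio 1.47). The SRF coactivators split, with Mkl1 at 41.0 FPKM in TIC and 21.8 FPKM in NTC and Mkl2 at 26.9 FPKM in TIC and 41.6 FPKM in NTC. The corepressor Ctbp2 had 59.5 FPKM in TIC and 38.4 FPKM in NTC. Gabpb2, a partner subunit of Gabpa, had 10.2 FPKM in TIC and 17.1 FPKM in NTC, and Det1, part of a ubiquitin ligase that degrades ETS proteins, had 4.09 FPKM in TIC and 6.51 FPKM in NTC. The Sp factors, the closest zinc finger relatives of the Klf genes, had 5 measured of 9. Sp6, an epithelial factor, was at least 2-fold higher in TIC at 4.88 FPKM, against 1.36 FPKM in NTC, and Sp4 had 2.67 FPKM in TIC and 1.89 FPKM in NTC. Sp3 had 23.8 FPKM in TIC and 21.6 FPKM in NTC, Sp1 had 40.8 FPKM in TIC and 44.8 FPKM in NTC, and Sp2 had 16.7 FPKM in TIC and 20.5 FPKM in NTC.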

How the data were processed

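RNA was sequenced from 1 TIC and 1 NTC library. Per the labels' protocols, total RNA from a small input was amplified as cDNA before library construction, which can change a gene's share of reads with its length and base composition. The authors deposited 1 FPKM value per gene and library. TopHat 1.4.0, Cuffdiff, Cufflinks, CASAVA 1.8.2 and mouse build mm9 are listed, without roles or settings, per the submitters' processing notes. The locus header names a human build, but of 20009 symbols shared with the RefSeq table of GRCm38, 99.7% had the same chromosome, while starts within 1 kb of each other made up 4.41%. Starts were 1 below those of GRCm38 for 197 genes and equal for 11, so 1 was added. Positions are therefore given in mm9, and promoter sequences in GRCm38.p6.

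No count model was fitted, because FPKM are normalised values. Ratios used a pseudocount of 1 FPKM, a gene counted as measured at a mean of 1 FPKM, and a call needed a log2 ratio of 1 in size. Depth came from receptor genes with a locus under 1.5 kb, as 1 over the median of FPKM times kb between 0.035 and 0.065 (23 genes in TIC, 39 in NTC), so it is rough. Only values inside this window entered, so the window bounds the estimate for either library. Read numbers behind low values used that depth and the longest GENCODE transcript, so they are rough as well. The ratio was run on simulated data with set folds and no noise, which checks the arithmetic only and says nothing about replicate error. The files describe Etv5, Klf11, Klf14 and Spib by several gene identifiers.

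The members and gene lists were chosen with earlier results of these data known. Named are each member, its neighbours within 1 Mb and up to 3 measured genes per direction of each list. Fgfr1, Fgfr2, Dusp6, Kdr, Cdh5 and markers at or near 0 were named outside this rule, after their values were seen. 1 marker of the blood cell list is not reported here. Python 3.11.15, numpy 2.4.6, pandas 2.3.3 and matplotlib 3.10.9 were used. Pseudocounts, filters and scalings were varied.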

Additional observations from a re-analysis of the deposited data

How the results depend on the processing

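A value was counted as moved when it shifted by more than 1.5 times. A pseudocount cannot change the direction of a ratio. The scalings moved the median of all measured genes only from -0.16 to at most 0.01, so a change of direction of a called member was not to be expected, and none occurred. Under all 5 pseudocounts and scalings tried, 14 of 19 called members stayed at least 2-fold (Ehf, Elf3, Elf5, Elk3, Ets1, Ets2, Etv1, Etv4, Etv5, Klf13, Klf2, Klf4, Klf6 and Klf7). With a pseudocount of 5 FPKM, 7 members were lower in TIC, since Elf1, Elf4, Klf12 and Klf9 fell short of 2-fold, and 7 were higher, since Klf15 did. With 0.1 FPKM, 10 were higher and 11 lower, and scaling both libraries to an equal sum gave 10 and 12. The log2 ratio of Elf5 ran from -9.32 to -5.81 and that of Etv4 from 3.88 to 6.44 between pseudocounts of 0.1 and 5 FPKM.

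The median of all measured genes was -0.16 as deposited, 0.01 with equal sums, 0 when centred and -0.06 with 75th percentile scaling. The members' median, -0.14 as deposited, was -0.03, 0.03 and -0.04 under the same scalings, so its sign is not fixed. The median of the milk genes was -6.59 with a pseudocount of 0.1 FPKM. It was -6.10 with equal sums, where the pseudocount also weighed less against the raised values, so this shift is not one of scaling alone. For FGF and ERK feedback genes, 1 gene was lower in TIC with a pseudocount of 5 FPKM, and 1 was lower and the median was 1.86 when the mean had to reach 5 FPKM. Among Sp factors 0 were higher with a pseudocount of 5 FPKM or a required mean of 5 FPKM, and 2 with equal sums. Of the partners 2 were higher with equal sums and when centred. No paired analysis was possible because each group had 1 library. Depth limits the ratios of members with a low value, about 19 reads for Elf5, 45 for Klf2 and 64 for Ehf in TIC, and about 43 for Etv4 and 52 for Klf15 in NTC, and replicate error is unknown.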
